A study of Mus musculus with 4 samples.

Results

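A set of 9 mouse genes tied to the human short stature gene SHOX was followed across all arrays of the study: Shox2, the SOX trio of Sox5, Sox6 and Sox9, the receptor gene Fgfr3, the natriuretic peptide genes Nppb and Nppc, and their receptor genes Npr2 and Npr3. The genes were chosen by name, for their place in SHOX biology, and each had 1 probe set among the 16492 tested. Limb RNA was hybridized to 4 arrays. Of these, 2 carried RNA of transgenic limbs and 2 carried RNA of wildtype limbs, all from embryos at stage E12.5 on a C57BL/6 background, with fore- and hindlimbs together and 2 to 4 littermates pooled per array. Transgenic embryos carried a human SHOXa cDNA under the rat Col2a1 promoter and enhancer. These had been used to drive expression in proliferating chondrocytes, which are a part of the cells of a whole limb. By in situ hybridization the study saw the transgene around the cartilage anlagen at E12.5, in a pattern resembling Col2a1. It describes SHOX levels as generally low and variable among animals. Wildtype limbs came from littermates without the transgene, the carriers were heterozygous, and the founders had C57BL/6 and DBA/2 parents. The study kept 2 transgenic lines, and which of them supplied the arrays is not given in the sources used here. The study states that it established transgene expression by quantitative RT-PCR before hybridization. No probe set for the human transgene was analysed here, so the genotype labels were not checked against SHOX on the arrays.

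SHOX is a homeodomain transcription factor of the growing skeleton. Mice have no SHOX gene, and Shox2 is its closest relative there, required for the proximal limb bones. SOX9 starts and maintains the cartilage programme, and SOX5 and SOX6, which lack an activation domain of their own, bind beside it on cartilage genes. FGFR3 slows the growth of cartilage. The C-type natriuretic peptide, encoded by Nppc, acts through the guanylyl cyclase receptor NPR2 and cyclic GMP (cGMP) to promote it. NPR3 clears natriuretic peptides, and Nppb encodes the B-type peptide, best known from heart muscle. Work in human cell lines has linked SHOX to the regulation of FGFR3, NPPB and the aggrecan gene, which is why the study asked after their mouse counterparts. By quantitative RT-PCR of embryonic limbs it found no effect on Fgfr3. Mean levels rose for the aggrecan gene, and for Nppb at a stage after E12.5, without reaching significance. It also reports similar Shox2 expression in transgenic and wildtype embryos.

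Values are log2 signals as deposited, and a difference is transgenic minus wildtype. Pairs of array titles have an ending in common, with 1 transgenic and 1 wildtype array in each pair. The labels do not say what the ending marks. It was read as the hybridization experiment, and experiment here means a pair of arrays with the same ending. Experiments 1 and 2 have no order. Pearson's r across probe sets was 0.998 and 0.997 between the 2 genotypes within experiments 1 and 2, against 0.986 between the transgenic and 0.987 between the wildtype arrays, so the experiments differed more than the genotypes. The female-specific RNA Xist was at 6.58 and 6.42 in transgenic limbs and at 9.62 and 9.36 in wildtype limbs. Its difference of -2.99 was the largest in size of all probe sets. The Y-linked genes Eif2s3y and Uty differed by 0.83 and 0.49, and both were higher in transgenic limbs in both experiments. These values ran with genotype in both experiments, so the block does not separate embryo sex from genotype. The sex of the pooled embryos is not given in the sources used here. Of 9 limb mesenchyme markers, all were measured, and their mean log2 signal was 8.62 and 9.06 in transgenic limbs and 8.70 and 9.14 in wildtype limbs. None of the 9 had a positive difference, beside 43.4% of all probe sets. In limma with the experiment as a block, 1 of the 9 passed a log2 difference of 0.2 and an unadjusted p of 0.05. This was Tbx5, a factor of forelimb identity, which was lower by 0.24. Over all probe sets 1.55% passed with the block, in either direction. Of 6 skeletal muscle markers, 6 had a positive difference, with mean log2 signals of 9.87 and 9.71 in transgenic limbs and 9.79 and 9.42 in wildtype limbs. The part of embryo sex and of tissue make-up in the values below was not tested. In whole limbs, fewer cells of a type and less RNA per cell cannot be told apart.

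SHOX and its relatives bind a core of the letters ATTA, or TAAT on the other strand. Promoter windows of 250 bases before the RefSeq start were searched on both strands, with overlapping matches counted. Of 14 windows at 8 of the 9 genes, 7 held the core, and so did 54.9% of the 32851 windows of all genes. Of these, 3 are given in full: Shox2 and Fgfr3, which had the largest differences in size among the 9 genes, and Nppb, reported as a target. All are in build GRCm38.p6, and capitals mark the core. Shox2 lies on the minus strand at chr3:66981772-66982021, Fgfr3 on the plus strand at chr5:33721474-33721723 and Nppb on the plus strand at chr4:147985650-147985899.
Shox2: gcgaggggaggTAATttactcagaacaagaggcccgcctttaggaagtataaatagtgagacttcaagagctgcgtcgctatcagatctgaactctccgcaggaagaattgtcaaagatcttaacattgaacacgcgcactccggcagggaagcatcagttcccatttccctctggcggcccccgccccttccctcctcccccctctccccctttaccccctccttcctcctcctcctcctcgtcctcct
Fgfr3: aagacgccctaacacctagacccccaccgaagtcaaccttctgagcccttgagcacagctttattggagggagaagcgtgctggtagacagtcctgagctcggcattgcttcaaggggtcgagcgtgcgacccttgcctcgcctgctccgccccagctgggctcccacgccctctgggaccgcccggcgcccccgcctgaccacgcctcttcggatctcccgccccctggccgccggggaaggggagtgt
Nppb: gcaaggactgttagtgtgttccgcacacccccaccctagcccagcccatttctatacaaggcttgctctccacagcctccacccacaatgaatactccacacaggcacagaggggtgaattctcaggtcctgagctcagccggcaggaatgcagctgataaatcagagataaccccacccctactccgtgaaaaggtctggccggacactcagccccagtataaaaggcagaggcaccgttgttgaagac
The Shox2 window held 1 core, which began 239 bases before the start. The Nppb window, this Fgfr3 window and a second Fgfr3 window held none. The study states that mice lack the SHOX-responsive elements of the human FGFR3 promoter, but have those of Nppb. The windows searched here need not cover the regions it refers to. The windows of Nppc and Npr3 held 1 each, at 31 and 9 bases before the start. Sox6, with 6 windows, had 9 cores in 4 of them, and the windows of Sox5 and Npr2 had none. These matches describe letters only and are not binding sites.

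None of the 9 genes changed past the thresholds of the study, a log2 difference beyond 0.2 and an unadjusted p under 0.05, in limma without a term for the experiment. The study asked for a significant change in both experiments and used a mixed model of its own. Its selection was thus not repeated here. Over all probe sets 0.188% passed. With the experiment as a block again none of the 9 passed, beside 1.55% of all probe sets. At an adjusted p under 0.05 none of the 9 passed in either fit, beside 0.273% of all probe sets with the block and none without it. An unadjusted p under 0.05 was reached by 2 of the 9 with the block, Shox2 and Fgfr3, beside 7.92% of all probe sets, and by none of the 9 without it. The differences of the 9 genes ran from -0.14 to 0.16, with a median of 0.0040 beside -0.01 over all probe sets. Their median size was 0.0441, against 0.0447 over all probe sets. A difference beyond 0.1 in size was seen in 3 of the 9 genes and in 14.98% of all probe sets. With the block, which rests mostly on a spread shared over genes, the 95% intervals of the 9 genes together spanned -0.26 to 0.29, a fold of 0.836 to 1.22. A missed threshold does not show that the genotypes had equal levels.

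**Figure D1:**
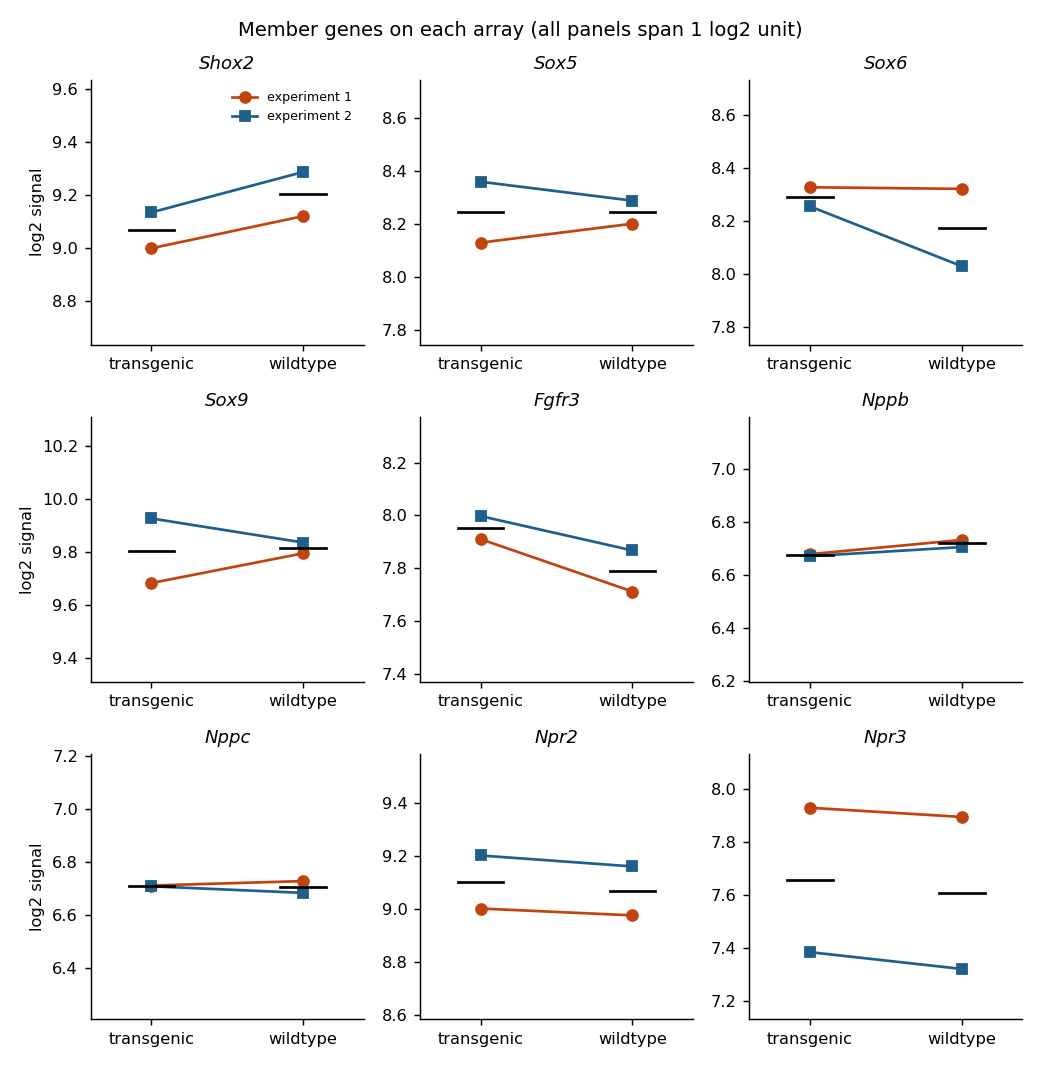
Log2 signal of each of the 9 genes (y axis, every panel spanning 1 log2 unit) on the transgenic and wildtype arrays (x axis). Circles and squares mark experiments 1 and 2, lines join the arrays of an experiment and bars give the genotype means. Npr3 shows the widest gap between experiments, and for Fgfr3 and Nppb the genotypes do not overlap.

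Shox2, the mouse relative of SHOX, was lower in transgenic limbs in both experiments by an amount that did not pass the thresholds. Its log2 signal was 8.998 and 9.13 in transgenic limbs and 9.12 and 9.29 in wildtype limbs. The wildtype array of experiment 1 lay just below the transgenic array of experiment 2, so the genotypes overlapped. The means were 9.07 ± 0.10 in transgenic and 9.20 ± 0.12 in wildtype limbs (SD, n = 2 each), a fold of 0.910. The differences within experiments 1 and 2 were -0.12 and -0.15. In limma with the block the 95% interval was -0.26 to -0.015 (adjusted p = 0.551), and without the block it was -0.41 to 0.14 (adjusted p = 1). A larger difference in size was found in 6.17% of all probe sets. The difference between experiments 1 and 2 was -0.15 over both genotypes, slightly larger in size than that between genotypes. All 9 limb mesenchyme markers also had a negative difference, with a median of -0.06, and their part in the Shox2 value was not tested. Over all probe sets 43.4% had a positive difference.

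Of 10 measured genes of other homeobox factors of the paired type, from a list of 15, none passed the thresholds in either direction, with or without the block. The list's median difference was 0.0084. Phox2a, a regulator of autonomic neurons, had the largest difference at 0.11, followed by Alx1, a factor of head mesenchyme, at 0.10, Pitx1, which sets hindlimb identity, at 0.10, and Rax, a factor of the eye field, at -0.09. The signals of Alx1, Phox2a and Rax were low, near the 32nd, 36th and 36th percentile of all probe sets. Prrx1, a general factor of limb mesenchyme, differed by -0.015.

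The SOX trio gave no difference of one sign. Sox9, the central factor of cartilage formation, had log2 signals of 9.68 and 9.93 in transgenic limbs and 9.79 and 9.84 in wildtype limbs. The transgenic arrays lay outside the wildtype pair on either side, with differences of -0.11 in experiment 1 and 0.09 in experiment 2. The means were 9.80 ± 0.17 and 9.81 ± 0.03 (SD, n = 2 each) in transgenic and wildtype limbs. The 95% interval in limma with the block was -0.14 to 0.12 (adjusted p = 0.983), a fold of 0.906 to 1.09.

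Sox5, a partner of Sox9, showed the same arrangement. Its log2 signal was 8.13 and 8.36 in transgenic limbs and 8.201 and 8.29 in wildtype limbs. Both means were 8.24, with an SD of 0.16 in transgenic and 0.06 in wildtype limbs (n = 2 each). The differences were -0.07 in experiment 1 and 0.07 in experiment 2, and the 95% interval with the block was -0.13 to 0.13. Sox9 and Sox5 thus both had opposite signs in the 2 experiments, and whether the experiments differ in this was not tested, since 1 array per genotype and experiment leaves no spread.

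Sox6, the other partner, was at 8.33 and 8.26 in transgenic limbs and at 8.32 and 8.03 in wildtype limbs. The wildtype array of experiment 2 was the low one, and the other arrays lay within 0.1 of each other. The difference was 0.0060 in experiment 1 and 0.23 in experiment 2, with a mean of 0.12 (95% interval -0.018 to 0.25, adjusted p = 0.702 from limma with the block). The difference was -0.03 when wildtype replicate 2 was left out and no block was used.

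**Figure D2:**
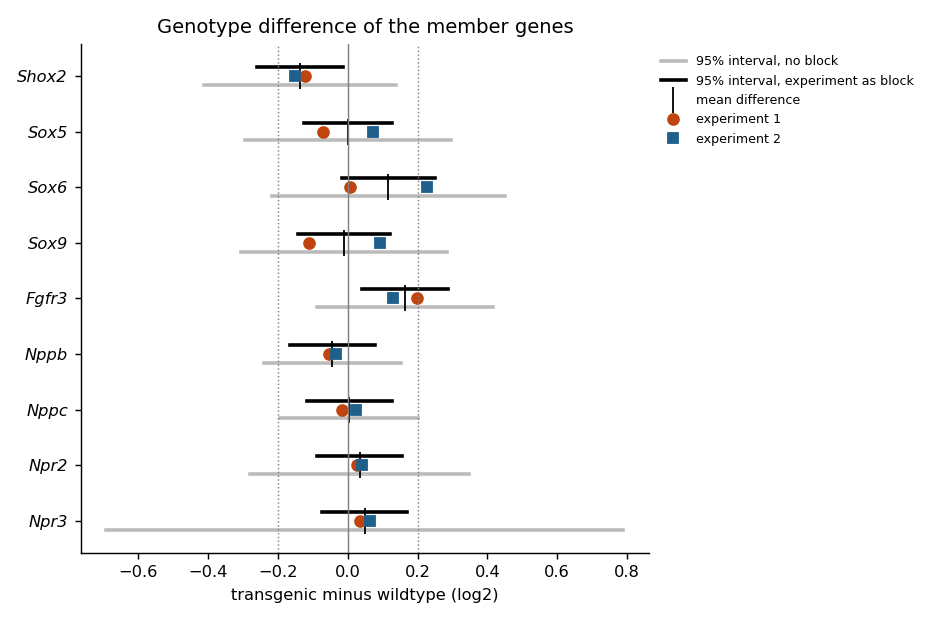
Transgenic minus wildtype log2 difference (x axis) of each of the 9 genes (rows). Circles and squares give the difference within experiments 1 and 2, ticks the mean, black and grey bars the 95% intervals from limma with and without the experiment as a block, and dotted lines the fold threshold of 0.2. No mean lies past a dotted line, and Fgfr3 and Shox2 are the genes whose black bars leave out 0.

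The list called cartilage matrix here holds 17 cartilage genes that SOX9 and its partners are known to activate, and all 17 were measured. Most belong to the matrix, but Wwp2 encodes a ubiquitin ligase. With the experiment as a block 8 of the 17 were higher and none was lower at the thresholds, beside 1.55% of all probe sets in either direction. Without the block 1 passed, Col9a3, a collagen type IX gene, beside 0.188% of all probe sets. With the block, 4 also had an adjusted p under 0.05, beside 0.273% of all probe sets, and all 4 were higher. These were Col9a3 at 0.39 and Mia, which encodes a small secreted cartilage protein, at 0.35. The others were Epyc, which encodes a leucine-rich proteoglycan, at 0.35, and Matn1, which encodes a matrilin, at 0.34. The list's median difference was 0.18, against -0.01 over all probe sets, and 16 of the 17 had a positive difference, as had 43.4% of all probe sets. The list was written with earlier results of these arrays known, so its direction is no independent evidence. The muscle markers also had a positive difference in 6 of 6 genes on the same arrays, with a median of 0.16, and 2 of them, Myh3 and Tnnt3, were higher at the thresholds with the block. Limb mesenchyme markers had a negative difference in 9 of 9 genes, with a median of -0.06. Erythroid markers, of which 4 of 5 were measured, had a negative difference in 3 of 4, with a median of -0.18, and 1, the embryonic globin gene Hba-x, was lower at the thresholds with the block, by 0.20. The part of tissue make-up was not tested.

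Acan, which encodes aggrecan and counts among the reported SHOX targets, had log2 signals of 7.51 and 7.90 in transgenic limbs and 7.32 and 7.47 in wildtype limbs. Both transgenic arrays lay above both wildtype arrays. Its difference was 0.31, made up of 0.19 and 0.44 in experiments 1 and 2 (adjusted p = 0.0518 by limma when blocked and 1 when not). Col2a1, whose regulatory sequence drives the transgene, was at 10.55 and 11.87 in transgenic limbs and at 10.58 and 11.68 in wildtype limbs. Its difference between genotypes was 0.09 (adjusted p = 0.825 from limma with the block), whereas between experiments 1 and 2 it was -1.21. Sox9 was lower in experiment 1 too, by 0.14, while Epyc and Mia were higher there by 0.99 and 0.82.

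Of the other SOX genes all 16 in the list were measured. Without the block none passed the thresholds. With it 2 were higher and none was lower, beside 1.55% of all probe sets in either direction: Sox2, a factor of neural progenitors and placodes, and Sox11, a factor widespread in embryonic mesenchyme and neurons. Sox2 had log2 signals of 7.15 and 6.96 in transgenic limbs and 6.93 and 6.67 in wildtype limbs. Its difference was 0.26 with no overlap of the genotypes (adjusted p = 0.102 from limma with the block). The Sox2 signal was low, near the 27th percentile of all probe sets. Sox11 was at 11.21 on both transgenic arrays and at 11.22 and 10.69 in wildtype limbs. Its difference, also 0.26, came from experiment 2 alone, with -0.0072 in experiment 1 and 0.52 in experiment 2. Sox6 and Sox11 thus had their low value on the same wildtype array. Neuron and Schwann cell markers, of which 6 of 8 were measured, had a positive difference in 6 of 6, beside 43.4% of all probe sets. Of these 6, 1 had the same sign in both experiments, beside 52.9% of all probe sets. The medians of the 6 markers were 0.33 and 0.0049 in experiments 1 and 2, and their part in the Sox2 value was not tested. Sox15 and Sox14 had differences of -0.13 and -0.10, at signals near the 31st and 29th percentile. The list's median was 0.00026.

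**Figure D3:**
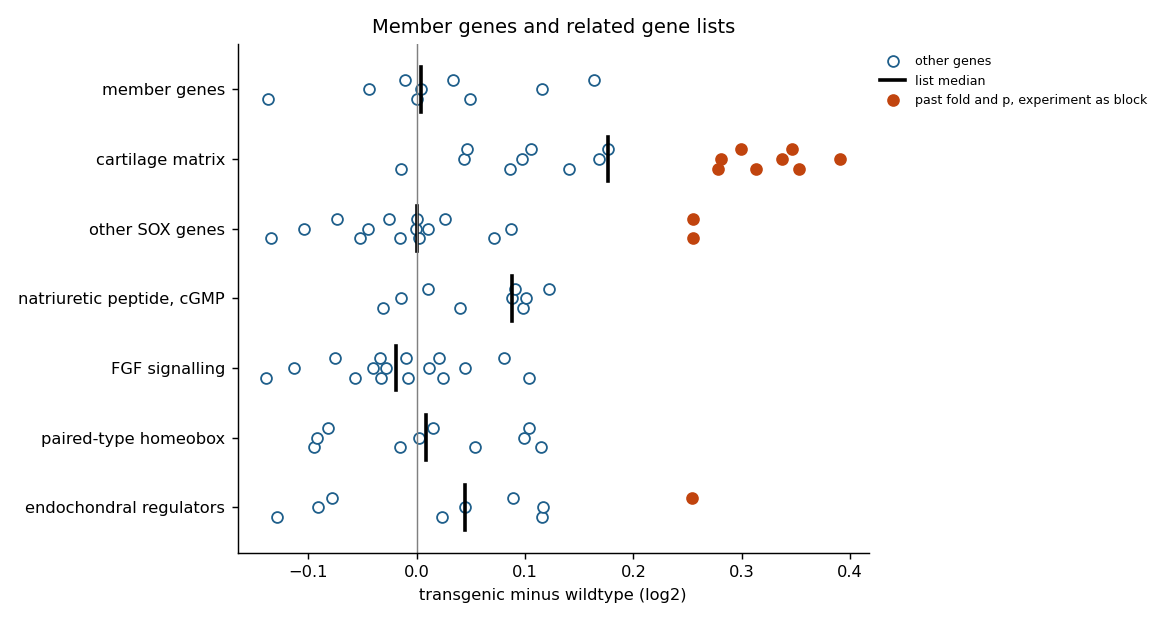
Transgenic minus wildtype log2 difference (x axis) of every measured gene of the member set and of 6 related lists (rows). Filled points passed a log2 difference beyond 0.2 and an unadjusted p under 0.05 in limma with the experiment as a block, open points did not, and black ticks are list medians. The 8 filled points among the 17 genes of the cartilage matrix list lie to the right, and the 9 member genes hold none.

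Fgfr3, which encodes the growth-restraining FGF receptor of cartilage, had the largest difference of the 9 genes. Its log2 signal was 7.91 and 7.998 in transgenic limbs and 7.71 and 7.87 in wildtype limbs. Both transgenic arrays lay above both wildtype arrays. The means were 7.95 ± 0.06 in transgenic and 7.79 ± 0.11 in wildtype limbs (SD, n = 2 each), a difference of 0.16 and a fold of 1.12. Within experiments 1 and 2 the differences were 0.20 and 0.13. The 95% interval was 0.041 to 0.29 in limma with the block (adjusted p = 0.409) and -0.09 to 0.42 without it (adjusted p = 1). A larger difference in size was found in 3.30% of all probe sets.

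Genotypes did not overlap in 2 of the 9 genes, Fgfr3 on the higher and Nppb on the lower side, beside 18.4% of all probe sets in either direction. The sign was the same in both experiments in 6 of the 9 genes, beside 52.9% of all probe sets. Both shares are stated for description, since 2 arrays per genotype make such patterns common.

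Of 16 measured genes of FGF signalling, from a list of 19, none passed the thresholds in either direction, with or without the block, and the median difference was -0.019. Among the receptors, Fgfr4 differed by 0.10, Fgfr2 by 0.08 and Fgfr1 by 0.01. Fgf8, the ligand of the apical ridge, had log2 signals of 6.93 and 6.73 in transgenic limbs and 6.93 and 7.01 in wildtype limbs. Its difference of -0.14 came from experiment 2, and its signal was low, near the 26th percentile of all probe sets. Dusp6, a phosphatase switched on by FGF signalling, differed by -0.11, and Etv4, a transcription factor downstream of it, by -0.07.

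Both natriuretic peptide genes had dim signals, near the 19th percentile of all probe sets on these arrays, and whether they lay above background is not known. Nppb was at 6.68 and 6.67 in transgenic limbs and at 6.73 and 6.71 in wildtype limbs. The genotypes did not overlap, but the difference was only -0.04 (95% interval -0.17 to 0.08, adjusted p = 0.92 from limma with the block), a fold of 0.970. A larger difference in size was found in 50.5% of all probe sets. Nppc was at 6.71 and 6.71 in transgenic limbs and at 6.73 and 6.68 in wildtype limbs. The transgenic arrays lay between the wildtype arrays, and the mean difference was 0.0040 (95% interval -0.12 to 0.13 from limma with the block). Of 5 heart markers, Nppa among them, all were measured. Their mean log2 signal was 6.85 and 6.79 in transgenic limbs and 6.95 and 6.83 in wildtype limbs. With the block 1, Myl7, which encodes an atrial myosin light chain, was lower at the thresholds by 0.26. Myl7 was dim too, near the 17th percentile, with differences of -0.40 and -0.13 in experiments 1 and 2. Over all probe sets 1.55% passed with the block, in either direction. The part of other tissue in the Nppb value was not tested.

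Npr2, which encodes the signalling receptor for the C-type peptide, had log2 signals of 9.001 and 9.20 in transgenic limbs and 8.98 and 9.16 in wildtype limbs. The genotypes interleaved, with differences of 0.03 and 0.04 in experiments 1 and 2. Its mean difference was 0.03 (95% interval -0.09 to 0.16, adjusted p = 0.94 from limma with the block).

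Npr3, which encodes the clearance receptor, varied most between experiments. It was at 7.93 and 7.39 in transgenic limbs and at 7.90 and 7.32 in wildtype limbs. Experiment 1 was thus higher than experiment 2 by 0.56 over both genotypes, while the genotypes differed by 0.03 and 0.06 within experiments 1 and 2. With the block the 95% interval of the genotype difference was -0.07 to 0.17 (adjusted p = 0.913 from limma), and without it -0.69 to 0.79. The epidermal, muscle and endothelial markers were also higher in experiment 1, by medians of 0.45, 0.40 and 0.19. So were neuron and Schwann cell, macrophage and heart markers, by medians of 0.26, 0.12 and 0.06. Limb mesenchyme markers were lower there, by a median of 0.41, and erythroid markers had a median of -0.03. Single genes went against their list, such as Myod1 of muscle at -0.63 and Tie1 of endothelium at -0.23. The part of these tissues in the Npr3 value was not tested.

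Of 9 measured genes of natriuretic peptide processing and cGMP signalling, from a list of 11, none passed the thresholds in either direction, with or without the block. The median difference was 0.09. Mme, the peptidase neprilysin, which breaks down natriuretic peptides, had a difference of 0.12, and Corin, the protease that activates the heart peptides, one of 0.10. Prkg1 and Prkg2, the cGMP-dependent kinases, had differences of 0.10 and 0.09. Prkg2, the kinase through which the C-type peptide acts in cartilage, was at 7.52 and 7.19 in transgenic limbs and at 7.40 and 7.13 in wildtype limbs, again with the higher value in experiment 1. Npr1, the receptor for the heart peptides, differed by -0.015, at a dim signal near the 17th percentile of all probe sets.

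**Figure D4:**
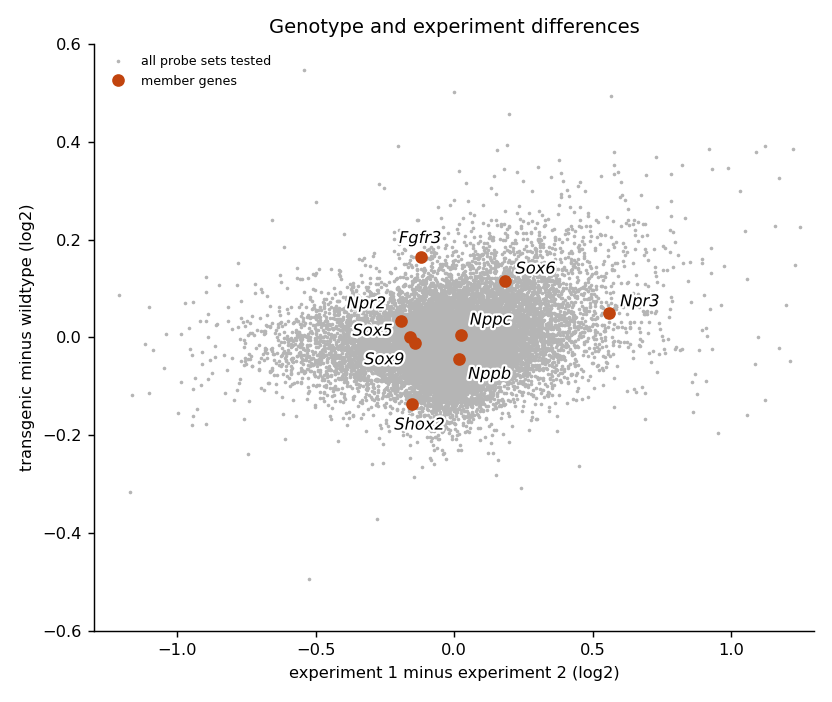
Transgenic minus wildtype log2 difference (y axis) against experiment 1 minus experiment 2 (x axis) for all probe sets (grey, with 12 outside the plotted range) and the 9 genes (coloured). Npr3 lies far to the right near 0 on the y axis, and the other genes lie within 0.2 of 0 on both axes.

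The difference between experiments was larger than that between genotypes in 7 of the 9 genes and in 74.4% of all probe sets. The median size of the experiment difference was 0.15 for the 9 genes and 0.11 for all probe sets. Only Fgfr3 and Nppb of the 9 differed more between genotypes than between experiments, at 0.16 beside -0.12 and at -0.04 beside 0.017. Outside Npr3, the experiment differences of the 9 genes ran from -0.19 for Npr2 to 0.18 for Sox6.

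Across the 4 arrays many genes had patterns close to those of Shox2, Sox6 and Fgfr3, the members compared in this way. Likeness was taken as the Euclidean distance between log2 signals, each gene centred on its own mean. Nearest to Shox2 were Got1, a cytosolic aminotransferase gene, at a distance of 0.016, Khdc1b at 0.016 and Lsm2, a gene of RNA processing, at 0.021, and 664 of the 15270 named probe sets lay within 0.1. Nearest to Sox6 were Vim, which encodes the mesenchymal filament vimentin, at 0.012, Sall2 at 0.028 and Marcks at 0.028, with 213 within 0.1. Nearest to Fgfr3 were Setd6 at 0.027, Arhgap21 at 0.038 and Usp33 at 0.038, with 135 within 0.1. With 4 arrays such neighbours are a description of these arrays only.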

How the data were processed

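Limb RNA of 2 transgenic and 2 wildtype pools was measured on Affymetrix mouse genome arrays. The authors took the perfect-match probe values, put them on a log scale, normalized them by quantiles and fitted mixed models in JMP Genomics with Entrez-based probe sets. The deposited log2 values were used as given. How probes were summarised, and on which genome build, is not given in the sources used here. Of 16556 probe sets, 64 controls were left out. Gene symbols came from the platform annotation, which names 15270 of the other 16492. Genotypes were compared with limma 3.58.1 in R 4.3.3 (lmFit, eBayes), Benjamini-Hochberg adjusted over all probe sets, with genotype alone and with the experiment as a block (1 residual degree of freedom, with 16.4 prior ones). The pairing comes from the shared title suffix, and the replicate differences of the 2 genotypes had a correlation of 0.857 across probe sets. Named genes were the 9 members, up to 4 per list by size of difference, fixed exceptions (Col2a1, Acan and sex-linked genes) and 3 nearest patterns. Fgfr1, Etv4, Npr1, Prrx1, Myl7 and Col10a1 were added after their values were seen. The members and lists were chosen with earlier results of these data known. Results were also computed with centred arrays, a second quantile normalization, filters on dim probe sets, an intensity trend, no moderation, other fold thresholds and leaving out 1 array. The fitting code was tested on simulated data. Promoter sequences are from RefSeq. The number of arrays limits the precision.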

Additional observations from a re-analysis of the deposited data

How the results depend on the processing

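None of the 9 genes passed the fold and p thresholds under any alternative run. With centred arrays Nppc was at -0.0079 rather than 0.0040; of 58 values of single genes outside the fits that leave out 1 array, this was the only one to turn its sign. Nppb and Nppc fell below the 25th percentile of mean signal, and they and Npr3 below the 50th, so those filters give no value for them. Without a block, a genotype left with 1 array carries the experiment difference too, and that array is assumed to vary like the other genotype: Sox5 then ran from -0.11 to 0.11, Sox6 from -0.030 to 0.26, Sox9 from -0.13 to 0.11, Nppc from -0.018 to 0.026, Npr2 from -0.067 to 0.13 and Npr3 from -0.24 to 0.34, while Shox2 (-0.22 to -0.05), Fgfr3 (0.09 to 0.24) and Nppb (-0.06 to -0.03) kept their sign. Of the 77 measured genes of the 6 related lists, 2 passed without the block and 11 with the replicate block. The count was 1 with centred arrays, with either filter on dim probe sets and at a fold threshold of 0.3, 0 with an intensity trend or no moderation, and 0 (without wildtype replicate 2) to 3 (without wildtype replicate 1) with 1 array left out. The median of the cartilage matrix list then ran from 0.10 to 0.24, and the medians of the other 5 lists changed sign. Over all probe sets 31 passed without the block. The count was 256 with the replicate block, 15 and 6 with the filters at the 25th and 50th percentile, 48 with an intensity trend, 14 with no moderation, 14 at a fold threshold of 0.3 and 12 (without wildtype replicate 2) to 56 (without wildtype replicate 1) with 1 array left out. Centred arrays gave 18 higher and 19 lower, against 22 and 9 as deposited. The cause of these shifts was not tested, beyond the fewer probe sets or arrays that a filter or a left-out array leaves.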

Other observations

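Endochondral bone formation was described by a list of 12 genes, most of them regulators, of which 9 were measured. Of these 9, only Bmp2, a growth factor that promotes chondrocyte differentiation, passed the fold and p thresholds, both without and with the block. Over all probe sets 0.188% and 1.55% passed, in either direction. Bmp2 was higher in transgenic limbs. Its log2 signal was 9.08 and 9.10 in transgenic limbs and 8.90 and 8.77 in wildtype limbs, so the genotypes did not overlap. The difference was 0.25, made up of 0.18 and 0.33 in experiments 1 and 2 (adjusted p = 0.124 from limma with the block). Bmp4, a related ligand, lay at 9.84 and 9.86 in transgenic limbs and at 9.87 and 10.09 in wildtype limbs, a difference of -0.13 that did not pass. Ihh, the hedgehog ligand of prehypertrophic chondrocytes, and Runx3, a transcription factor of chondrocyte maturation, each had a difference of 0.12 that did not pass. The list's median difference was 0.04. Col10a1, the collagen gene of hypertrophic chondrocytes, had a dim signal of 6.51 and 6.49 in transgenic limbs and 6.67 and 6.48 in wildtype limbs.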
